A study of Mus musculus with 12 samples.

Results

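The heat shock and chaperone genes are the protein-coding genes of the mouse genome whose symbols begin with Hspa, Hspb, Hspd, Hspe, Hsph, Hsp90, Dnaja, Dnajb, Bag or Cct followed by a number or by letters and a number, with Tcp1 and Hsf1 added. By this naming rule, which used no measured value, 61 of the 51467 genes in the deposited count table were members. They were followed from mouse embryonic stem cells (ESCs) to epiblast-like cells (EpiLCs), in total RNA and in newly made RNA. Both cell types came from 1 reporter line on a V6.5 background, in which the miR-290 locus drives mCherry and the miR-302 locus drives GFP, so every group carried both reporters and the line was not varied. ESCs were held in the naive state with LIF and 2i, a pair of inhibitors of MEK and GSK3, in Knockout DMEM with 15% fetal bovine serum. EpiLCs were plated 24 h before LIF and 2i were withdrawn and were collected 56 h after withdrawal. All cells received 500 µM 4-thiouridine (4sU), a uridine analog, for 30 min, and each of the 4 groups (ESC 4sU, ESC total, EpiLC 4sU and EpiLC total) had 3 libraries. RNA captured through the 4sU label is called nascent RNA, and rRNA-depleted unselected RNA is called total RNA. The labels number the libraries but do not say whether they are separate cultures. The study calls its replicates biological, with n = 3 for each experiment. The p-values measure the spread between these libraries.

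Chaperones bind polypeptides that are not yet folded or have come unfolded. HSP70 proteins bind short exposed stretches in cycles of ATP hydrolysis that J-domain proteins start and that HSP110 and BAG proteins end by exchanging the nucleotide. HSP90 acts later, on kinases and transcription factors that are close to their folded state, small heat shock proteins hold unfolded proteins without using ATP, and the cytosolic chaperonin, a ring of CCT subunits, encloses actin, tubulin and other proteins while they fold. HSF1 is the transcription factor that turns on a subset of these genes after heat or other protein damage, while many of the others are expressed at a high level in unstressed, growing cells.

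Levels are read counts scaled to library size (CPM), adjusted for library composition with TMM factors, and changes are log2 fold changes of EpiLC over ESC from limma-voom. A gene was called when its Benjamini-Hochberg adjusted p over all genes tested was under 0.05 and its absolute log2 fold change was over 1, and calls by adjusted p alone are given as well. Library totals ran from 3097693 to 5385644 counts in 4sU libraries and from 9300845 to 21975684 in total libraries. All 8 naive markers fell and all 6 formative markers rose in total RNA. The ESC libraries with the replicate number 3 stood apart from the other ESC libraries in both RNA types, on a component holding 2.33% of the variance. Of 7 fibroblast markers, 3 were tested and 2 of these, Col1a2 and Dcn, rose in total RNA. Both were kept for testing only through their level in EpiLC libraries. The summed level of the 7 was 14.7 to 19.0 CPM in EpiLC total libraries and 3.90 to 4.76 CPM in ESC total libraries, with Dcn at 0 in all ESC libraries and Postn at 0 in 5 of the 6 total libraries. Of 5 primitive endoderm markers, Gata4 rose and Sox17 fell, and their summed level was 7.62 to 9.08 CPM in EpiLC and 4.95 to 10.5 CPM in ESC total libraries. The part of such cells in the results below was not tested, and fewer cells of a type cannot be told apart from less RNA per cell in bulk RNA.

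Of the 61 members, 50 passed the expression filter of at least 3 CPM in at least 3 libraries. In total RNA, 5 members were called higher in EpiLCs (Bag2, Dnaja4, Hspa1a, Hspa1b and Hspa4l), where 16.3% of the 14731 genes tested were. Called lower were 5 members (Dnajb13, Dnajb6, Hsp90aa1, Hspb1 and Hspb8), against 11.2% of all genes. By adjusted p alone, 12 members rose and 11 fell, with 31.4% and 32.1% of all genes. Without both ESC replicate 3 libraries 19 members fell by adjusted p, the 8 added being Bag6, Cct5, Cct7, Cct8, Hsp90ab1, Hspa14, Hspa8 and Hsph1, and 16 fell without ESC total replicate 3 alone. Over all genes, 5402 and 5037 fell in those settings, against 4729 with all libraries.

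In nascent RNA, 5 members were called higher (Bag2, Dnaja4, Dnajb5, Hspa1a and Hspa4l; 11.9% of all genes) and 4 lower (Dnajb13, Dnajb6, Hspb1 and Hspb8; 13.5% of all genes). By adjusted p alone, 18 members rose and 8 fell, with 23.7% and 28.8% of all genes. The median change over the 50 members was 0.17 in nascent RNA and -0.04 in total RNA, against -0.09 and 0.02 over all genes. Across the members, the changes in the 2 RNA types had a Pearson's r of 0.935 and a Spearman's rho of 0.725 (n = 50 genes from the same 2 cell types, which are not independent replicates), and r was 0.898 without Dnajb13. By adjusted p, 7 members rose in both RNA types and 7 fell in both. A further 10 rose in nascent RNA and did not pass in total RNA, Hspa4 rose in nascent and fell in total RNA, and 16 passed in neither. These joint outcomes were not counted over all genes, so they cannot be set against a share of all genes.

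**Figure D1:**
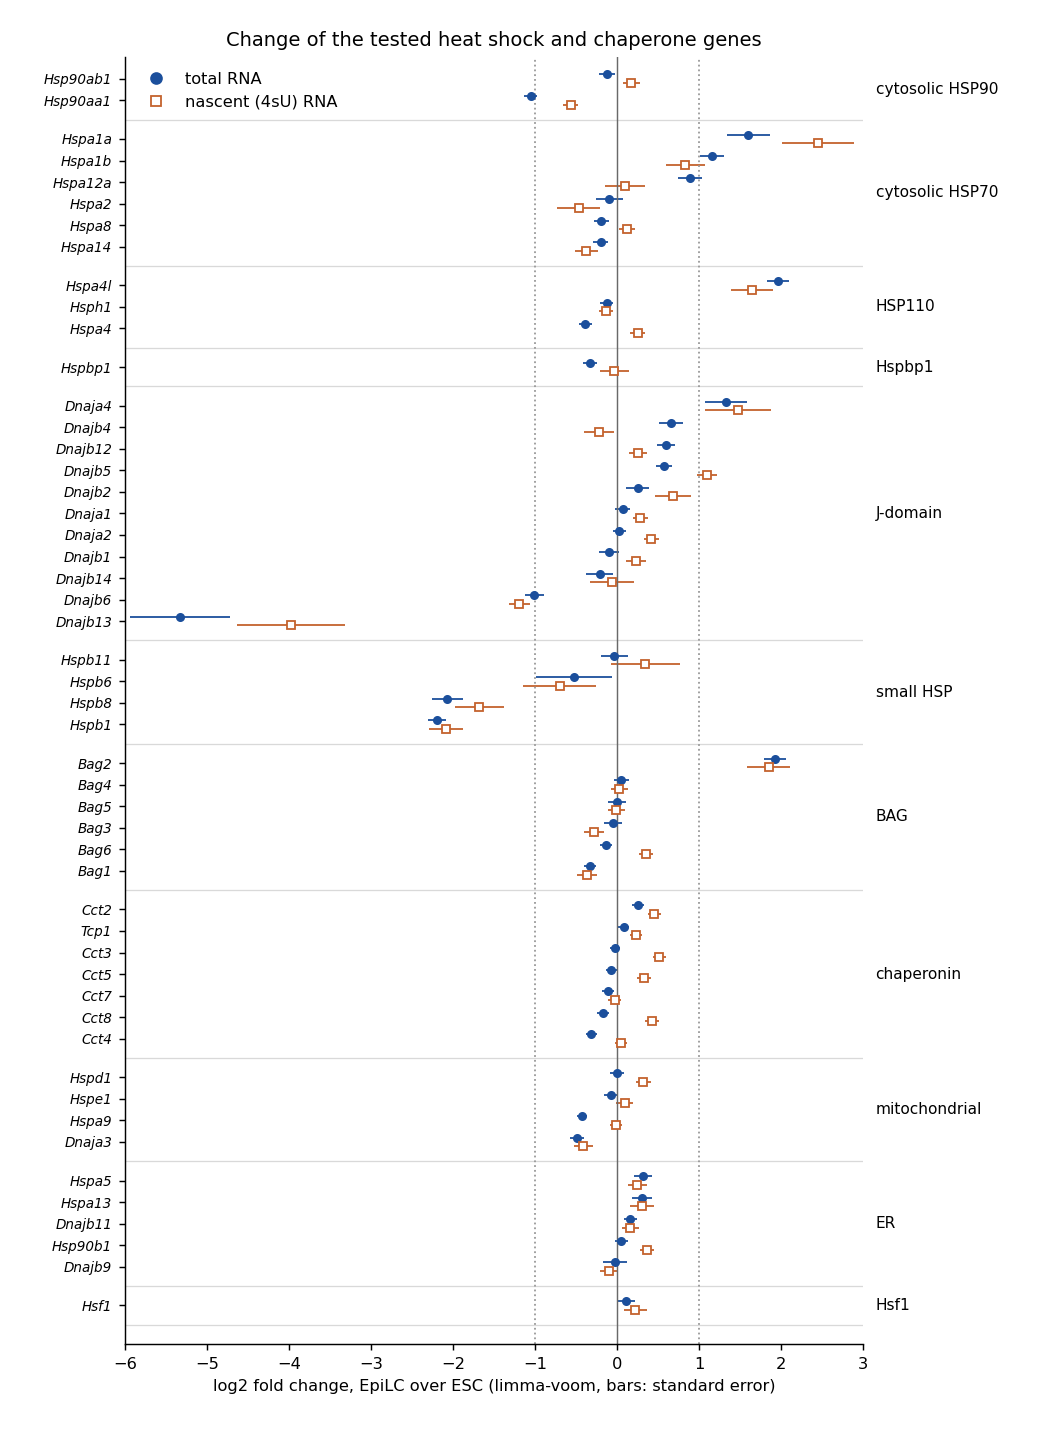
Log2 fold change of EpiLC over ESC for the 50 tested members, grouped by role, in total RNA (filled circles) and nascent RNA (open squares), from limma-voom with bars of 1 standard error. Dotted lines mark log2 changes of -1 and 1, and Dnajb13, Hspb1 and Hspb8 lie farthest to the left while Hspa4l, Bag2 and Hspa1a lie farthest to the right.

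Hsf1 itself had 32.6, 29.1 and 28.0 CPM in the ESC total libraries and 34.9, 33.5 and 29.1 CPM in the EpiLC total libraries. The ranges overlapped, and the change was 0.11 (adjusted p = 0.353) in total and 0.22 (adjusted p = 0.194) in nascent RNA. HSF1 binds the heat shock element, an array of the unit GAA in alternating orientation with 2 bases between units. RefSeq promoter windows (250 bases before to 50 after a start site, GRCm38.p6) were at hand for 52 of the 61 members. A pair of units (GAANNTTC or TTCNNGAA, each its own reverse complement, so that both strands are covered) was found in 17 of the 52, or 32.7%, against 16.97% of 27025 genes. A run of 3 or more units, which contains a pair, was found in 4 members (Dnajb6, Hspd1, Hspe1 and Hsph1), or 7.7%, against 0.66% of genes. These matches are letters in a window and were not tested as bound sites. The runs of 3 or more units, and the pairs in the promoters of called members, are shown 5′ to 3′ on the strand of the gene with the units and the bases between them in capitals. Their windows are chr1:55088053-55088082, plus strand, for Hspe1, whose run of 4 units lies in the interval of 107 bases that separates it from the divergent gene Hspd1, chr5:29735844-29735873, plus strand, for Dnajb6, chr5:149636279-149636308, minus strand, for Hsph1, chr17:34972242-34972271, minus strand, for Hspa1a, chr17:34959324-34959353, minus strand, for Hspa1b, chr9:54699458-54699487, plus strand, and chr9:54699496-54699525, plus strand, for Dnaja4, chr5:135887791-135887820, plus strand, and chr5:135887811-135887840, plus strand, for Hspb1, and chr5:116422844-116422873, minus strand, for Hspb8.
Hspe1 and Hspd1: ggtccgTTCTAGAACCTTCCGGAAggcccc
Dnajb6: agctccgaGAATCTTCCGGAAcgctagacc
Hsph1: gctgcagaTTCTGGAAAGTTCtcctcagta
Hspa1a: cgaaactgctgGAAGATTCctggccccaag
Hspa1b: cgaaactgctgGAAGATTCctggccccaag
Dnaja4, distal: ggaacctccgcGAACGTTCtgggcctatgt
Dnaja4, proximal: gcctcctggcgGAACCTTCcgccggcgccg
Hspb1, distal: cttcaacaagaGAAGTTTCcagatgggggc
Hspb1, proximal: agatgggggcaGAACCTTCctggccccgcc
Hspb8: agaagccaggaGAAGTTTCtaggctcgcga
Among the 15 tested members with a pair of units, 5 rose, 3 fell and 7 passed in neither direction in total RNA by adjusted p. Of all genes, 31.4% rose and 32.1% fell there. In nascent RNA 7 of the 15 rose, 3 fell and 5 passed in neither direction, where 23.7% of all genes rose and 28.8% fell. The windows of Hspa1a and Hspa1b are identical letter for letter.

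Of the cytosolic HSP90 genes, the inducible form fell and the constitutive form did not pass. Hsp90aa1, which encodes the stress-inducible HSP90 alpha (chr12:110690605-110696395, minus strand, mm10), had 1822, 1825 and 1672 CPM in ESC total libraries and 860.0, 861 and 841 CPM in EpiLC total libraries. It was lower in every EpiLC library, by 2.08-fold (log2 fold change -1.05, SE 0.08, adjusted p = 4.39e-08). Its nascent RNA fell as well, from 597, 753 and 587 to 457, 430.3 and 418 CPM (log2 fold change -0.56, SE 0.09, adjusted p = 0.000147). The drop in total RNA was larger than that in nascent RNA, with a stability change (total minus nascent) of -0.49 (adjusted p = 0.0377). Hsp90ab1, which encodes the constitutive HSP90 beta, was the most abundant member per kilobase, with 4074, 3957 and 3112 CPM in ESC and 3334, 3382 and 3427 CPM in EpiLC total libraries. These ranges overlapped (log2 fold change -0.13, adjusted p = 0.271), and in nascent RNA the change was 0.17 (adjusted p = 0.174). Per kilobase of exon, Hsp90aa1 stood at 33.3%, 34.4% and 40.0% of Hsp90ab1 in ESC total libraries and at 19.2%, 19.0% and 18.3% in EpiLC total libraries. In nascent RNA the same share was 22.2%, 22.8% and 18.3% in ESCs and 12.4%, 12.6% and 12.9% in EpiLCs. Neither pair of groups overlapped (exact two-sided permutation test on the log2 ratios, p = 0.1 for each, the smallest that 3 against 3 libraries allow, adjusted p = 0.114 over 8 comparisons of this kind). With library totals alone as the scale, the total change of Hsp90aa1 was -0.97, inside the fold threshold, and its stability change missed an adjusted p of 0.05 in 10 of 22 alternatives, namely edgeR and leaving out any EpiLC library, ESC 4sU replicate 1 or ESC total replicate 1 or 2.

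**Figure D2:**
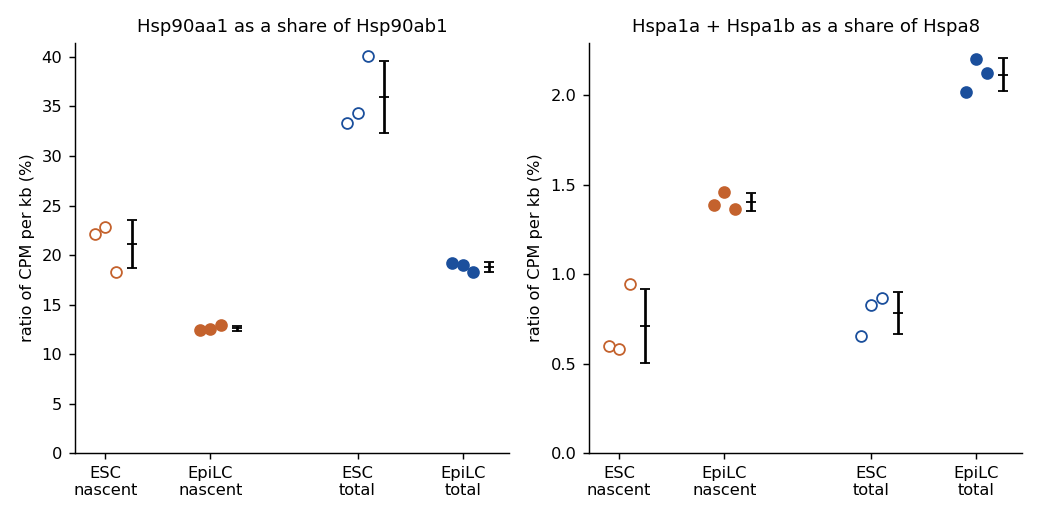
Level of Hsp90aa1 as a percent of Hsp90ab1 (left) and of Hspa1a plus Hspa1b as a percent of Hspa8 (right), in CPM per kilobase of exon, for each library, with the mean and SD of 3 libraries beside the points. The HSP90 share was 35.9% ± 3.61 in ESC and 18.8% ± 0.489 in EpiLC total libraries, and the HSP70 share was 0.784% ± 0.115 and 2.12% ± 0.0924. The HSP70 share leaves out reads that match both Hspa1a and Hspa1b.

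Among the cytosolic HSP70 genes, both inducible copies rose and the abundant constitutive gene did not pass. Hspa1a and Hspa1b, a near-identical pair that encodes the stress-inducible HSP70 (chr17:34969190-34972156, minus strand, and chr17:34956436-34959238, minus strand), were both scarce. Hspa1a had 0.874, 1.26 and 0.988 CPM in ESC and 3.48, 2.76 and 3.50 CPM in EpiLC total libraries, or 15, 25 and 10 against 31, 29 and 35 reads. Every EpiLC library was above every ESC library, and the gene rose 3.03-fold (log2 fold change 1.60, SE 0.26, adjusted p = 9.14e-05). In nascent RNA it went from 0.411, 0.719 and 0.545 to 4.50, 3.62 and 2.39 CPM, also without overlap (log2 fold change 2.45, SE 0.44, adjusted p = 0.000337). The ESC side of that change rests on 2, 4 and 2 reads, and Hspa1a passed the expression filter only through EpiLC libraries. Hspa1b had 4.08, 4.96 and 4.94 CPM in ESC and 9.87, 11.3 and 9.79 CPM in EpiLC total libraries, 2.23-fold higher (log2 fold change 1.16, SE 0.15, adjusted p = 6.68e-06), and its nascent RNA rose from 3.70, 4.50 and 6.0 to 8.05, 8.09 and 8.35 CPM, by 0.83 on the log2 scale (adjusted p = 0.00893). Reads matching both copies were dropped by unique alignment, so the level of each copy is uncertain and leaves out what they share. Of 7 immediate early genes, 4 were called higher in total RNA (Jun, Junb, Fosb and Atf3), against 16.3% of all genes. The summed level of the 7 in total RNA was 278 to 348 CPM in EpiLC and 152 to 211 CPM in ESC libraries (2106 to 3153 CPM and 900 to 1525 CPM in nascent RNA). Their part in the rise of Hspa1a and Hspa1b was not tested.

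Hspa8, the constitutive cytosolic HSP70, had 640.4, 633 and 578 CPM in ESC and 556, 540.5 and 526 CPM in EpiLC total libraries. The groups did not overlap, but the change of -0.19 (SE 0.09) had an adjusted p of 0.0854. Hspa1a and Hspa1b together stood at 0.654%, 0.830% and 0.869% of Hspa8 per kilobase in ESC total libraries and at 2.02%, 2.20% and 2.13% in EpiLC total libraries, without overlap (exact two-sided permutation p = 0.1). Reads that match both copies are missing from these percents, so their absolute size is uncertain. Hspa12a, an HSP70 relative that is expressed in brain, rose in total RNA (0.89, adjusted p = 0.000121), while its nascent change was 0.09 (adjusted p = 0.772). Hspa2, the HSP70 of male germ cells, had changes of -0.10 and -0.47, neither of which passed. Hspa14, an HSP70 that works at the ribosome, fell in nascent RNA, from 58.0, 47.7 and 46.1 to 42.6, 37.7 and 36.4 CPM (-0.37, adjusted p = 0.0383), a call that 8 of 22 alternatives lost (other scalings, no filter, and without EpiLC 4sU replicate 2 or 3 or ESC 4sU replicate 1), and had a total change of -0.20 (adjusted p = 0.0774) at 215, 232 and 193 CPM in ESCs and 168, 202 and 189.6 CPM in EpiLCs.

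Of the HSP110 family of nucleotide exchange factors, Hspa4l rose and Hspa4 fell in total RNA. Hspa4l, best known from testis and from the kidney under osmotic stress (chr3:40745430-40796103, plus strand), had 10.4, 11.9 and 8.79 CPM in ESC and 48.0, 41.5 and 35.5 CPM in EpiLC total libraries. It rose 3.91-fold with no overlap (log2 fold change 1.97, SE 0.13, adjusted p = 1.26e-08), and its nascent RNA rose 3.13-fold, from 7.60, 5.39 and 4.91 to 19.4, 19.0 and 17.6 CPM (log2 fold change 1.64, SE 0.26, adjusted p = 0.000112). Hspa4, its broadly expressed relative, was far more abundant, with 1406, 1340.3 and 1369.9 CPM in ESC and 1002, 1068 and 1074 CPM in EpiLC total libraries. Its total RNA fell (log2 fold change -0.39, SE 0.08, adjusted p = 0.000609) while its nascent RNA rose (log2 fold change 0.25, SE 0.09, adjusted p = 0.0313), the 1 member in which the RNA types passed in opposite directions. The nascent rise was lost with no expression filter and without any EpiLC 4sU library. It was also lost without ESC 4sU replicate 3 and without both ESC replicate 3 libraries. The stability change of Hspa4 was -0.64 (SE 0.12, adjusted p = 0.0126), and it kept an adjusted p under 0.05 in all 22 alternatives. Hsph1, the stress-inducible HSP110 with a run of 3 units in its promoter window, had 170.3, 175 and 162 CPM in ESC and 158, 154 and 154 CPM in EpiLC total libraries and passed in neither RNA type (-0.13, adjusted p = 0.182, and -0.13, adjusted p = 0.212, in nascent RNA). Hspbp1, a further exchange factor that the naming rule takes in through its Hspb prefix although it is no small heat shock protein, fell in total RNA (-0.33, adjusted p = 0.00453).

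The J-domain proteins, which bring clients to HSP70 and start its ATPase, included the member with the largest change. Of 14 cytosolic and nuclear members 11 were tested. By adjusted p 4 rose and 2 fell in total RNA, where 31.4% of all genes rose and 32.1% fell. Dnajb13, known from the radial spokes of cilia and sperm tails (chr7:100501716-100514960, minus strand), had 116, 139 and 97 reads in ESC total libraries and 0, 3 and 3 in EpiLC total libraries. That is 6.76, 7.03 and 9.58 CPM against 0, 0.286 and 0.300 CPM, and the nascent reads were 23, 19 and 14 against 1, 0 and 1. Dnajb13 passed the expression filter only through ESC libraries. The transcript was close to absent from EpiLCs in both RNA types (log2 fold change -5.32, SE 0.61, adjusted p = 2.53e-06 in total RNA), and the size of the fitted fold depends on the 0.5 reads added before taking logs. Dnajb6, which keeps polyglutamine proteins from aggregating (chr5:29735688-29818134, plus strand) and whose promoter window has a run of 3 units, had 37.9, 38.7 and 39.7 CPM in ESC and 18.4, 20.3 and 18.9 CPM in EpiLC total libraries. It fell 2.01-fold in total RNA (log2 fold change -1.01, SE 0.11, adjusted p = 2.06e-06) and 2.29-fold in nascent RNA (log2 fold change -1.19, SE 0.13, adjusted p = 3.2e-06), with no overlap in either. The nascent levels were 81.2, 67.4 and 66.8 CPM in ESCs and 26.3, 36.9 and 31.0 CPM in EpiLCs. Its total change lies at the fold threshold and fell short of it in 6 of 22 alternatives (-0.92 to -0.997), namely library totals as the scale, quality weights, and without EpiLC total replicate 1 or 3, ESC total replicate 3 or both ESC replicate 3 libraries.

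Dnaja4, a farnesylated cochaperone (chr9:54698873-54716315, plus strand) with 2 pairs of units in its promoter window, had 1.22, 1.42 and 1.98 CPM in ESC and 3.81, 3.71 and 3.50 CPM in EpiLC total libraries. It rose 2.51-fold (log2 fold change 1.33, SE 0.26, adjusted p = 0.000448), and in nascent RNA 2.77-fold (log2 fold change 1.47, SE 0.40, adjusted p = 0.00693). Without the EpiLC libraries Dnaja4 would not have passed the expression filter, and its ESC nascent levels rest on 4, 6 and 11 reads. Among its nascent libraries ESC replicate 3 was high, at 3.00 CPM against 0.822 and 1.08 CPM, and still below the EpiLC libraries, which had 3.55, 3.83 and 4.17 CPM. Dnajb5, a relative of Dnajb1 that is abundant in heart and brain (chr4:42949814-42959425, plus strand), rose 2.14-fold in nascent RNA, from 19.7, 21.9 and 26.4 to 50.0, 47.3 and 45.6 CPM (log2 fold change 1.10, SE 0.12, adjusted p = 2.8e-06). Its total RNA rose less, from 14.9, 14.6 and 14.4 to 22.1, 21.8 and 21.3 CPM (log2 fold change 0.57, SE 0.10, adjusted p = 0.000144). Dnajb4 and Dnajb12, the latter anchored in the ER membrane with its J-domain in the cytosol, rose in total RNA by 0.65 and 0.60 on the log2 scale (adjusted p = 0.0013 and 0.000163), and neither passed in nascent RNA. Dnajb1, the main heat-induced J-domain partner of HSP70, had 109, 116 and 120.1 CPM in ESC and 113, 103 and 106 CPM in EpiLC total libraries and did not pass (-0.10, adjusted p = 0.477, in total and 0.23, adjusted p = 0.135, in nascent RNA). The housekeeping genes Dnaja1 and Dnaja2 rose in nascent RNA by 0.28 and 0.42 (adjusted p = 0.018 and 0.00144) with total changes of 0.07 and 0.03, and Dnajb2 showed the same pattern (0.68 and 0.25). Dnaja1 had 101, 115 and 111 CPM in ESC and 147, 129.9 and 119.6 CPM in EpiLC nascent libraries, and its call was lost without EpiLC 4sU replicate 1 or ESC 4sU replicate 1.

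**Figure D3:**
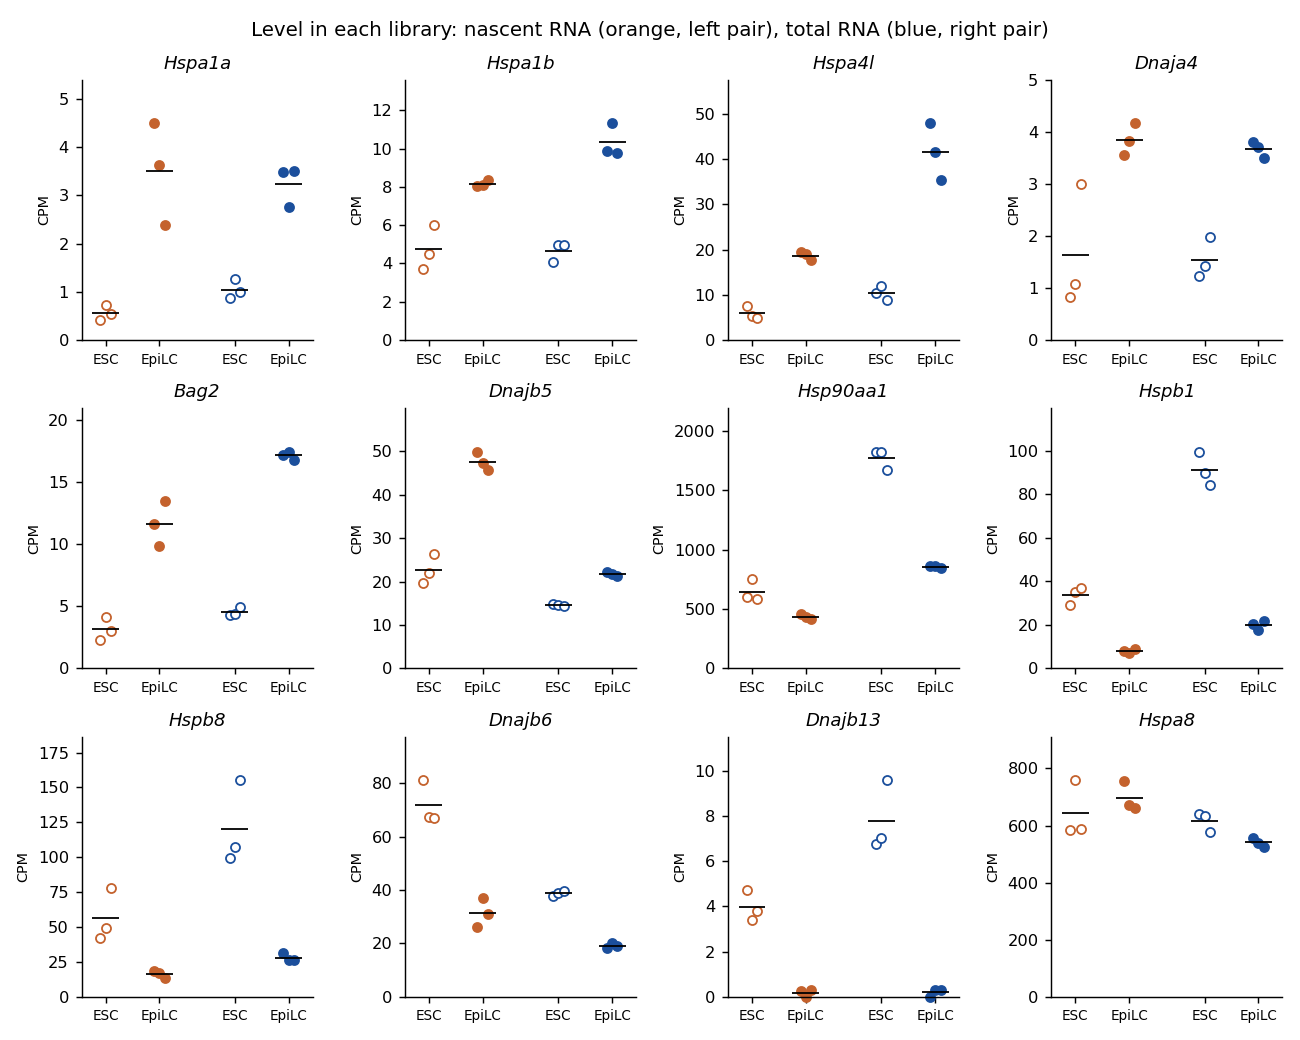
Level (CPM) in each library of the 11 members called in total or nascent RNA and of Hspa8, with open circles for ESC, filled circles for EpiLC, orange for nascent and blue for total RNA, a bar at the mean of 3 libraries and every axis from 0. In total RNA, Hspa1a, Hspa1b, Hspa4l, Dnaja4, Bag2 and Dnajb5 sit higher and Hsp90aa1, Hspb1, Hspb8, Dnajb6 and Dnajb13 lower in all EpiLC libraries.

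Of the 8 small heat shock protein genes, 4 were tested, and the most abundant of them, Hspb1 and Hspb8, both fell. Hspb1, which encodes HSP27, a holder of unfolded proteins that also binds actin (chr5:135887919-135889563, plus strand), had 99.5, 89.5 and 84.1 CPM in ESC and 20.2, 17.8 and 21.9 CPM in EpiLC total libraries. It was 4.58-fold lower in EpiLCs (log2 fold change -2.19, SE 0.11, adjusted p = 4.8e-10) and 4.23-fold lower in nascent RNA, which went from 29.2, 35.1 and 36.8 to 8.05, 6.82 and 8.95 CPM (log2 fold change -2.08, SE 0.21, adjusted p = 1.53e-06). Hspb8, which joins BAG3 to route damaged proteins to autophagy (chr5:116408491-116422864, minus strand), had 99.1, 107 and 155 CPM in ESC and 31.2, 26.2 and 26.6 CPM in EpiLC total libraries. It was 4.20-fold lower (log2 fold change -2.07, SE 0.19, adjusted p = 2.67e-07), and 3.21-fold lower in nascent RNA, at 18.7, 17 and 13.7 CPM in EpiLCs (log2 fold change -1.68, SE 0.30, adjusted p = 0.000289). The nascent ESC levels were 42.3, 49.1 and 78.2 CPM, so that ESC replicate 3 was highest in both RNA types, and without it in total RNA the total change was -1.89. Hspb6, known from muscle, and Hspb11, a subunit of the intraflagellar transport complex, did not pass (-0.52 and -0.03 in total RNA).

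The BAG genes encode cochaperones that release clients from HSP70. Of the 6, 1 was called, higher in both RNA types, where 16.3% of all genes were in total and 11.9% in nascent RNA. Bag2, an inhibitor of the ubiquitin ligase CHIP (chr1:33745484-33757795, minus strand), had 4.31, 4.40 and 4.94 CPM in ESC and 17.2, 17.4 and 16.8 CPM in EpiLC total libraries. It rose 3.80-fold in total RNA (log2 fold change 1.93, SE 0.14, adjusted p = 2.09e-08). Its nascent levels of 2.26, 4.14 and 3.00 CPM in ESCs and 11.6, 9.80 and 13.4 CPM in EpiLCs differed 3.60-fold (log2 fold change 1.85, SE 0.26, adjusted p = 3.61e-05), with no overlap between the cell types. Bag1, an anti-apoptotic partner of HSP70, fell in total RNA (-0.33, adjusted p = 0.00155) and in nascent RNA (-0.37, adjusted p = 0.0234). Its nascent call was lost with no filter, with some other scalings, and without EpiLC 4sU replicate 2 or 3 or ESC 4sU replicate 2 or 3. Bag3, the partner of HSPB8 and a heat-induced gene, had 20.4, 21.6 and 26.2 CPM in ESC and 22.0, 20.7 and 22.0 CPM in EpiLC total libraries, which overlap (-0.05, adjusted p = 0.724). Its nascent levels were 51.2, 52.9 and 64.0 CPM in ESCs and 46.4, 43.9 and 45.9 CPM in EpiLCs, without overlap. The nascent change of -0.28 did not pass (limma-voom adjusted p = 0.0587), and it passed in 5 of 22 alternatives. The ratio of Hspb8 to Bag3 per kilobase was 6.86, 7.01 and 8.37 in ESC total libraries and 2.00, 1.79 and 1.71 in EpiLC total libraries, without overlap (exact two-sided permutation p = 0.1). Bag6, which guards hydrophobic proteins on their way to the ER membrane, rose in nascent RNA (0.35, adjusted p = 0.00328) with a total change of -0.13 (adjusted p = 0.113). Bag4 and Bag5 had total changes of 0.05 and -0.00083.

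The cytosolic chaperonin subunits were among the most abundant members. By adjusted p, 5 of the 7 tested rose in nascent RNA, where 23.7% of all genes did. In total RNA 1 rose and 1 fell, against 31.4% and 32.1% of all genes. In total RNA the 7 tested subunits spanned 404 to 592 CPM per kilobase in ESCs and 371 to 564 in EpiLCs, so the highest level was 1.47 and 1.52 times the lowest. In nascent RNA, Cct2, Cct3, Cct5, Cct8 and Tcp1 rose, by 0.45, 0.52, 0.33, 0.43 and 0.23 on the log2 scale (largest adjusted p = 0.0166, for Tcp1). With no expression filter Cct5 and Tcp1 were lost, which left 3, and Tcp1 was also lost without EpiLC or ESC 4sU replicate 1. Cct4 and Cct7 had nascent changes of 0.05 and -0.03. In total RNA Cct2 rose (0.26, adjusted p = 0.00482) and Cct4 fell (-0.31, adjusted p = 0.000654), and the other 5 lay between -0.17 and 0.08 without passing. Cct8 also fell without ESC total replicate 3 or any 1 ESC 4sU library, and Cct5, Cct7 and Cct8 fell, giving 4 subunits with Cct4, with quality weights or without both ESC replicate 3 libraries. Tcp1, the alpha subunit, had 349.6, 409 and 390.3 CPM in ESC and 456, 449 and 444 CPM in EpiLC nascent libraries. Cct3, the gamma subunit, had 197, 219.8 and 209.6 CPM in ESC and 295, 296 and 304 CPM in EpiLC nascent libraries, with no overlap. Its total level was 1244, 1220.0 and 1094 CPM in ESC and 1133, 1173 and 1195 CPM in EpiLC libraries, which overlap. All 7 subunits had a stability change below 0 here and in all 22 alternatives, with a median of -0.36 against 0.11 over all genes. Of the 14731 genes tested, 5754 had a stability change below 0. Cct3 (-0.54, adjusted p = 0.0122) and Cct8 (-0.60, adjusted p = 0.0136) passed, in every alternative as well, while the remaining 5 had adjusted p from 0.0531 to 0.702. Cct6a, a chaperonin subunit gene that the annotation does not class as protein-coding and which is therefore no member, had a nascent change of 0.29, a total change of -0.21 and a stability change of -0.50 (adjusted p = 0.00502, 0.0145 and 0.0157). The testis form Cct6b and Cct8l1 were below the filter, with at most 38 and 8 reads in a library.

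**Figure D4:**
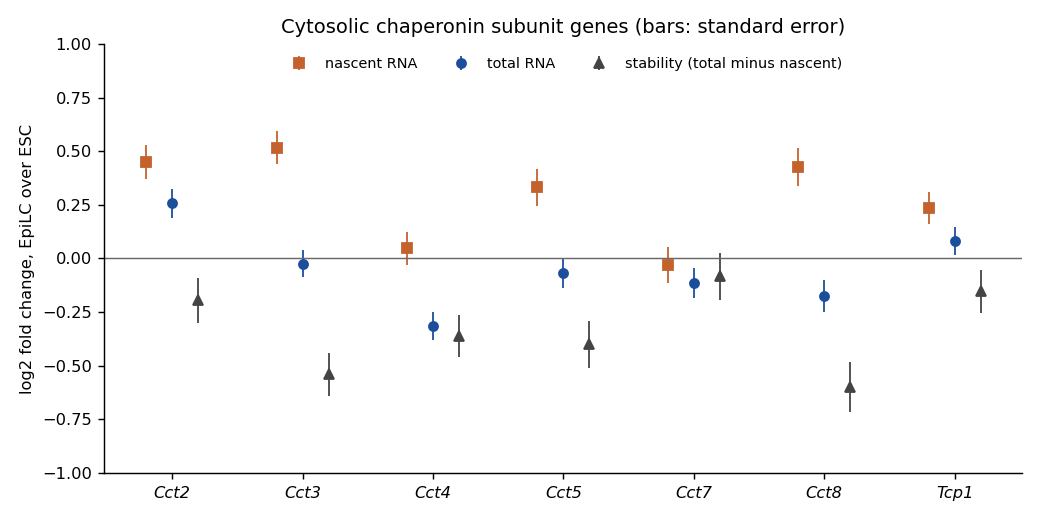
Log2 fold change of EpiLC over ESC for the 7 tested chaperonin subunit genes in nascent RNA (squares), total RNA (circles) and stability (triangles, total minus nascent), from limma-voom with bars of 1 standard error. The stability change lies below 0 for all 7, from -0.08 for Cct7 to -0.60 for Cct8.

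The mitochondrial members were lower in total RNA or did not pass. Hspa9, the HSP70 of the mitochondrial matrix (mortalin), had 1608, 1589.8 and 1598 CPM in ESC and 1133, 1194 and 1227 CPM in EpiLC total libraries. It fell in total RNA with no overlap (log2 fold change -0.43, SE 0.06, adjusted p = 2.25e-05), while its nascent levels of 609.7, 659 and 706 CPM and 653, 652 and 645 CPM overlapped (-0.01, adjusted p = 0.882). The stability change was -0.42 (adjusted p = 0.022), a call lost without any 1 of the EpiLC 4sU libraries, EpiLC total replicates 1 and 2, and ESC total replicates 1 and 2. Dnaja3, the J-domain protein of the matrix, fell in total (-0.49, adjusted p = 0.000185) and nascent RNA (-0.41, adjusted p = 0.00681). Hspd1 and Hspe1, the chaperonin HSP60 and its lid HSP10, are transcribed apart from the shared 107 bases that hold the run of 4 units. In total RNA Hspd1 had 635, 623 and 528 CPM in ESC and 569, 612 and 601 CPM in EpiLC libraries, and Hspe1 had 142, 149 and 132 and 135, 139 and 127 CPM. Both overlapped between cell types (-0.0023, adjusted p = 0.982, and -0.08, adjusted p = 0.386). In nascent RNA Hspd1 rose, from 277, 315 and 265 to 370.4, 347 and 352 CPM (0.32, adjusted p = 0.00892), and Hspe1 had a change of 0.09 (adjusted p = 0.47). Their ratio per kilobase in nascent RNA was 1.65, 1.60 and 1.35 in ESCs and 1.75, 1.85 and 1.78 in EpiLCs, without overlap (exact two-sided permutation p = 0.1). In total RNA the ratio was 1.43, 1.34 and 1.28 in ESCs and 1.35, 1.41 and 1.51 in EpiLCs, which overlap (exact two-sided permutation p = 0.4).

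In the endoplasmic reticulum (ER), 2 of 5 members rose in total RNA by adjusted p, where 31.4% of all genes did. Hspa5, the ER HSP70 (BiP) and a marker of the unfolded protein response, had 928, 935 and 839 CPM in ESC and 1127, 1119.9 and 1117 CPM in EpiLC total libraries (log2 fold change 0.32, SE 0.11, adjusted p = 0.0187). The groups did not overlap, and the call was lost without EpiLC total replicate 1 (adjusted p = 0.0504) and with TMM factors from all genes (adjusted p = 0.0549). Hspa13, a microsomal HSP70 relative, rose as well (0.31, adjusted p = 0.0408). The call of Hspa13 was lost with no filter, another scaling (median of ratios), edgeR, DESeq2 or TMM factors from all genes. It was also lost without EpiLC 4sU replicate 2, EpiLC total replicate 1 or 2, or ESC total replicate 1 or 3. Hsp90b1, the ER HSP90 (GRP94), had 431, 512 and 486 CPM in ESC and 605, 654 and 578 CPM in EpiLC nascent libraries and rose there (0.37, adjusted p = 0.00302), with a total change of 0.05 (adjusted p = 0.581). Dnajb11, a J-domain partner of BiP, had a total change of 0.16 (adjusted p = 0.0998). Dnajb9, a further partner of BiP that is induced by ER stress, was the member with the lowest total level relative to nascent RNA. It had 12.1, 12.6 and 10.3 CPM in ESC total and 145, 189 and 162 CPM in ESC nascent libraries, and its total and nascent changes were -0.03 and -0.10.

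Relative stability was taken as log2 of total over nascent RNA, set against the median of all genes in the same libraries. The libraries were scaled without spike-in reads, so only differences between genes can be read from it. The median over the 50 members was 0.615 ± 0.0351 above that of all genes in ESCs and 0.411 ± 0.155 in EpiLCs (mean ± SD over 3 replicate numbers), and against protein-coding genes alone it was 0.360 and 0.188. Members differed widely by role. All 7 chaperonin subunits lay above the median of all genes in both cell types, with percentiles of 86.0 to 98.1 in ESCs and 82.0 to 94.8 in EpiLCs. The 4 mitochondrial members lay at percentiles of 75.6 to 82.8 and 67.5 to 77.1. Of the 11 J-domain members, 5 in ESCs and 1 in EpiLCs lay above the median of all genes, and the median of the group was -0.64 and -0.60. Bag3 and Bag5 (percentiles 22.8 and 22.7 in ESCs) lay far below Bag1 (94.1). At the ends of the range, Cct3 was highest in ESCs (2.48), Hspa14 in EpiLCs (2.11), and Dnajb9 lowest in both (-3.83 and -3.87, percentiles 5.52 and 1.59).

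**Figure D5:**
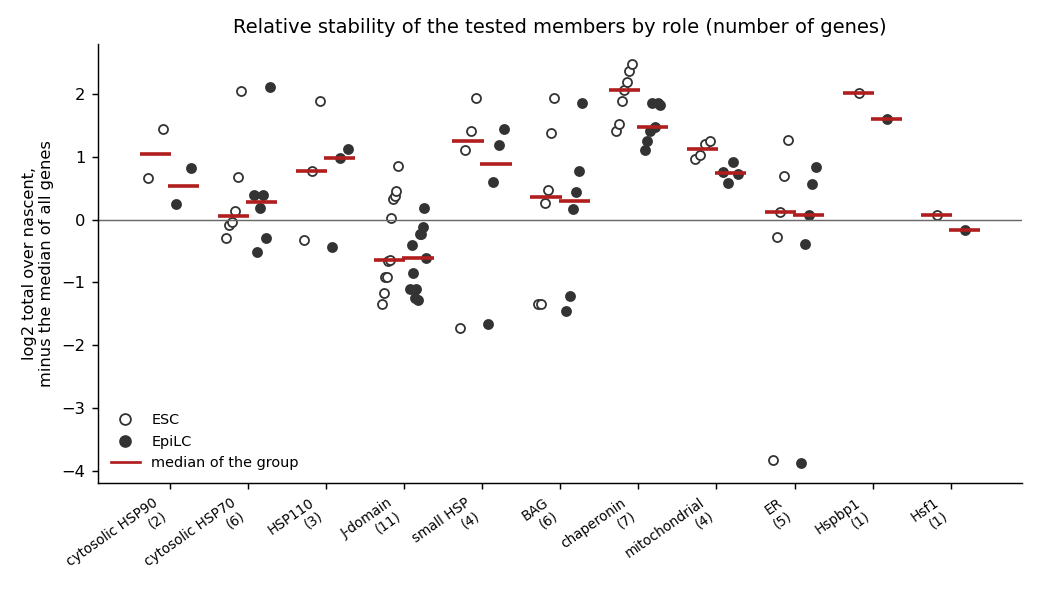
Relative stability of each tested member (log2 of total over nascent RNA, minus the median of all genes tested) by role, in ESCs (open circles) and EpiLCs (filled circles), with red bars at the median of each group and the number of genes in parentheses. Chaperonin genes lie above 1 in both cell types, most J-domain genes lie below 0, and the lowest point of each cell type is Dnajb9.

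The stability change between cell types, tested as the interaction of cell type and RNA type, was small for the members. No member was called higher or lower with the fold threshold (1.24% and 0.305% of all genes were), and none had an unadjusted p under 0.05 together with a log2 change over 1. By adjusted p alone 6 members fell (Bag6, Cct3, Cct8, Hsp90aa1, Hspa4 and Hspa9, where 1.88% of all genes did) and none rose (2.72% of all genes). At an unadjusted p under 0.05 limma-voom had 13 members lower and 3 higher, a threshold at which all genes were not counted. With a block for cell type and replicate number together, 10 members were lower and Dnajb4 was higher. The 4 added were Cct4, Cct5, Dnaja2 and Dnajb5. Of the 14731 genes tested, 654 were lower and 1077 higher with that block. By adjusted p, edgeR gave 5 lower and 0 higher and DESeq2 gave 12 lower and 0 higher. Over all genes edgeR gave 284 lower and 424 higher, and DESeq2 790 lower and 417 higher. The median stability change of the members was -0.15 against 0.11 over all genes, and both moved with the scaling, to -0.26 and 0.01 when TMM factors were taken from all genes. All 6 were smaller than 1 on the log2 scale. Cct3, Cct8 and Hspa4 passed in all 22 alternatives, and Bag6 was lost in 8, each without 1 of EpiLC 4sU replicates 1 and 2, the 3 EpiLC total libraries, ESC 4sU replicate 2 and ESC total replicates 1 and 2.

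Partners of the members were taken from lists of known cochaperones and folding factors. Of 17 cochaperones of HSP90 and HSP70, a list that includes Hspbp1, 12 fell in total RNA by adjusted p, with a median change of -0.25, against 32.1% of all genes. In nascent RNA 4 fell and 3 rose (Ppid, Cdc37 and Ptges3), with a median change of 0.01, where 28.8% of all genes fell and 23.7% rose. Stip1, which hands clients from HSP70 to HSP90, changed by -0.48 (adjusted p = 0.000107), Sugt1 by -0.87 (adjusted p = 1.23e-06) and Cdc37, which brings kinases to HSP90, by -0.25 (adjusted p = 0.0028). Cdc37 and Ptges3, the HSP90 cochaperone p23, rose in nascent RNA (0.21 and 0.51, adjusted p = 0.04 and 0.00064) and fell in stability (-0.46 and -0.68, adjusted p = 0.0224 and 0.0134). All 10 factors of mitochondrial folding and proteolysis had total changes below 0, and 8 fell by adjusted p, among them Hscb, the J-domain protein of iron-sulfur cluster assembly (-1.39, adjusted p = 7.78e-07), the protease subunit Afg3l2 (-0.80, adjusted p = 1.71e-06) and the mitochondrial HSP90 Trap1 (-0.44, adjusted p = 0.000182). Of 16 ER folding genes, 2 rose (Manf and Dnajc3, by 0.56 and 0.45) and 5 fell in total RNA, with Sdf2l1, a component of the BiP complex, changing most (-1.31, adjusted p = 3.21e-07). In total RNA 31.4% of all genes rose by the same rule.

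The 11 members below the expression filter had few reads. Dnajb7 and Dnajb8 had 0 reads in all libraries, and Hspb3, Hspb9 and Hspb7 had at most 1, 3 and 4 reads in a library. Hspa1l and Cct8l1 reached 8 reads, Hspa12b and Dnajb3 reached 18, Hspb2 reached 28 and Cct6b reached 38. Cct6b had 27, 38 and 13 reads in ESC total libraries and 4 in each EpiLC total library, and was not tested. Together the 61 members held 2.17% of the total-RNA CPM in ESCs and 1.94% in EpiLCs, and 1.02% and 1.12% of the nascent CPM.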

How the data were processed

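RNA was measured in 12 libraries, 3 each of ESC 4sU, ESC total, EpiLC 4sU and EpiLC total RNA. Adapters were removed with cutadapt 1.14, reads were aligned to mm10 with STAR 2.5.3a, and featureCounts 1.5.3 counted uniquely aligned reads by strand over GENCODE M14 genes, per the submitters' processing notes and the methods of the study. The count values were deposited by the authors as unnormalized reads per gene. No molecular identifiers were used, so reads are not independent molecules. Standard errors, SDs and p-values measure the spread between libraries. The 92 spike-in entries held 0 reads and were left out, and no column was left unused. For symbols and gene types, 51274 of the 51467 gene IDs were matched in GENCODE M21.

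The expression filter kept a gene that reached 3 CPM in 3 or more libraries. Kept genes were fitted with limma 3.58.1 (voom, with TMM factors from edgeR 4.0.16, in R 4.3.3) in 1 linear model of the 4 groups, with 0.5 reads added before log2, two-sided tests and Benjamini-Hochberg adjustment over all genes kept. The stability change is the interaction term, (EpiLC total minus EpiLC 4sU) minus (ESC total minus ESC 4sU). The thresholds of a call were 0.05 for the adjusted p and 1 for the size of the log2 change. Library totals, given in the report, set the precision, which is lowest in 4sU libraries. Ratios of members used CPM per kilobase of exon and exact permutation tests over libraries.

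The members, gene lists and tests were chosen with earlier results of these data known. Values per library were given for each called member, for the major and heat-inducible chaperones and for the members at the ends of the stability range. Other members named with values were chosen after their values were seen. Alternatives were no filter, 3 other scalings, edgeR quasi-likelihood, DESeq2 1.42.0, quality weights, a replicate block and leaving out each library. TMM factors from all genes and dropping both ESC replicate 3 libraries were added after seeing the data. The model was tested on simulated data with known changes. Promoter windows came from RefSeq (GRCm38.p6).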

Additional observations from a re-analysis of the deposited data

Results flagged for a closer look

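For 6 members the ratio of total to nascent RNA differed between the cell types by the interaction term of limma-voom, and in each case it was lower in EpiLCs. The log2 differences were -0.64 for Hspa4 (adjusted p = 0.0126), -0.60 for Cct8, -0.54 for Cct3, -0.49 for Hsp90aa1, -0.48 for Bag6 and -0.42 for Hspa9. In Hspa4 the total and nascent changes passed in opposite directions, though the nascent rise was lost in several alternatives. In Hsp90aa1 both RNA types fell, in Cct3, Cct8 and Bag6 nascent RNA rose and total RNA did not pass, and in Hspa9 total RNA fell and nascent RNA did not pass. What the difference reflects was not tested.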

How the results depend on the processing

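Of the 1782 values of named genes under the 22 alternatives, 1630 kept their direction and their side of the adjusted p threshold, 33 no longer passed, 58 newly passed, 61 that passed in neither changed sign, and no passing value did. Counts of called members moved by more than 1.5 times in few settings. With no expression filter 9 members were called higher in total RNA in place of 5, and with library totals alone 3 were called lower in place of 5. By adjusted p alone the counts were 12 higher and 11 lower in total RNA, 18 and 8 in nascent RNA, and 6 lower in stability. Leaving out each library in turn gave 5 to 6 higher and 4 to 5 lower in total RNA, 5 and 4 in every case in nascent RNA, and 0 to 1 higher in stability, the 1 without EpiLC 4sU replicate 1. The number of members lower in stability by adjusted p alone ran from 3 to 14, with 3 when EpiLC 4sU replicate 1 or 2, EpiLC total replicate 1 or 2, or ESC total replicate 1 or 2 was left out, 12 without ESC total replicate 3 and 14 with quality weights or without both ESC replicate 3 libraries. The count over all genes moved as well. It was 277 in the main fit and 110 to 148 in the settings that gave 3 members. It was 726 without ESC total replicate 3, 963 with quality weights and 1029 without both ESC replicate 3 libraries. The causes of these shifts were not tested. Depth limits the nascent changes of Hspa1a and Dnajb13, which rest on 2, 4 and 2 reads in ESC 4sU and on 1, 0 and 1 reads in EpiLC 4sU libraries. It also limits that of Dnaja4, which rests on 4, 6 and 11 reads in ESC 4sU libraries. The median relative stability of the members was 1.447 in ESCs and 1.333 in EpiLCs with no expression filter, and 0.360 and 0.188 against protein-coding genes.

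A replicate block left 5 higher and 5 lower members in total RNA, 5 and 4 in nascent RNA and 0 called in stability, and by adjusted p alone it gave 10 lower and 1 higher in stability. The block was the replicate number for total and nascent RNA, and cell type and number together for stability. The study's methods split each labeled extract between the RNA types, but the labels do not say that equal numbers mark the same extract. Deviations of same-numbered 4sU and total libraries correlated at 0.163 to 0.408 in ESCs and at 0.0234 to 0.0747 in EpiLCs, and 9 of 12 libraries correlated best with their own number, as a hint from the data.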

Other observations

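Of 26 tested Dnajc genes, which encode J-domain proteins with varied other domains, 8 rose and 11 fell in total RNA by adjusted p. By the same rule 31.4% of all genes rose and 32.1% fell, and these shares also stand beside the total RNA changes of the lists that follow. Dnajc6, which encodes auxilin, a factor that uncoats clathrin vesicles, changed by -2.98, and Dnajc4 by -1.51. Of 9 genes for prefoldin, which delivers actin and tubulin to the chaperonin, and for related helpers, Pdcl3 and Pfdn4 rose (0.37 and 0.28) and Pfdn1 and Pfdn5 fell (-0.80 and -0.64). Among the relatives of Hsf1, Hsf5, a gene of male germ cells, rose by 2.20 and Hsf2 fell by 0.36 on the log2 scale in total RNA. Hsf5 passed the expression filter only through EpiLC libraries. Of 5 tested heat-inducible genes outside the chaperone families, Serpinh1, the collagen chaperone HSP47, and Hmox1, heme oxygenase, rose in total RNA (0.34 and 0.45) and more in nascent RNA (1.38 and 1.11), and Ubb, a polyubiquitin gene, fell in total RNA (-0.65). All of these values are from limma-voom and passed an adjusted p of 0.05.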
